A study of Arabidopsis thaliana with 24 samples.

Results

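The libraries compared here are the 3 mkkk18-ABA and the 3 WT-ABA libraries of a small RNA sequencing series of 24 libraries, chosen by their labels, with the 350 mature miRNA sequences that every table lists. WT was Arabidopsis thaliana of the Columbia ecotype (Col-0), and mkkk18, labelled a Salk line mutant, was 1 T-DNA insertion line of MAPKKK18 in that ecotype. Seedlings of both genotypes were 2 weeks old and had received 100 µM abscisic acid (ABA) for 4 h, and the series also holds mock-treated seedlings of both and the mutants mkkk17 and abi1td with and without ABA. Replicates are labelled as independent biological replicates, and RNA came from seedlings with no tissue separated, so fewer cells that express a miRNA and less of it per cell cannot be told apart. The mRNA of MAPKKK18 is not measured in small RNA tables, so the genotype labels were not checked against it.

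ABA is the hormone with which plants answer drought and salt. It is bound by receptors that then hold back phosphatases such as ABI1, and MAPKKK18 is an ABA-induced kinase at the head of a phosphorylation cascade that ABI1 is known to restrain. A plant miRNA is cut from a hairpin precursor, is loaded into an ARGONAUTE protein and directs the cleavage or the repression of mRNAs that pair with it along nearly its whole length.

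Values are reads per 1000000 reads (RPM), rounded by the authors to 1 decimal. In the 4 of the 6 libraries where the rounded values still show the steps of whole reads, 1 read was worth 0.124 to 0.180 RPM, which corresponds to totals of about 5540000 to 8040000 reads, and 3 reads, the limit that a count of 0 allows, were worth 0.373 to 0.541 RPM. In WT-ABA replicate 1 and mkkk18-ABA replicate 3 the steps were finer than the rounding shows. These limits cover counting error only. Of the 350 entries, 110 were listed at 0 in all 6 libraries and 137 were above 0 in all 6.

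One library stood apart. The GC content of the listed miRNAs, weighted by their RPM, was 56.6%, 57.7% and 57.8% in the WT-ABA libraries, and 57.5%, 52.2% and 54.4% in mkkk18-ABA replicates 1, 2 and 3. The WT-Mock libraries had 52.2% to 53.4% and the mkkk18-Mock libraries 52.5% to 53.3%. By this measure mkkk18-ABA replicate 1 lay among the WT-ABA libraries, and replicates 2 and 3 lay nearer to the mock libraries. The measure leans on miR166-3p (GC content 61.9%), which held 52.7% of the listed RPM in mkkk18-ABA replicate 1. That miRNA held 37.2% and 43.2% in replicates 2 and 3, and at least 48.6% in each WT-ABA library. Weighted by log2 values, GC content was 48.2% in mkkk18-ABA replicate 1, between replicates 2 and 3 (46.9% and 47.3%) and WT-ABA (48.7% to 49.3%). By the distance of the log2 values over the tested miRNAs, mkkk18-ABA replicate 1 was still nearer to its own group (mean distance 9.77) than to the WT-ABA libraries (10.9). Results are therefore given with and without that library. Leaving it out raised the number of miRNAs past the threshold from 11 to 26 (21.1% of 123 tested), of which 19 were higher (15.4%) and 7 lower (5.69%). The other mkkk18-ABA libraries mattered as well. Of the 11, 9 passed without replicate 1, 4 without replicate 2 and 5 without replicate 3.

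The summed RPM of the listed miRNAs was 33399, 54118 and 53472 in WT-ABA and 78277, 45027 and 45860 in mkkk18-ABA. The groups overlapped, and the difference of the means, 9392 RPM, had an exact permutation p of 0.6 (two-sided, 3 against 3 libraries, for which the smallest possible p is 0.1). Without mkkk18-ABA replicate 1 the difference was -1553 RPM. Without the most abundant entry the groups did not overlap, with means of 30436 RPM in mkkk18-ABA and 22253 RPM in WT-ABA (exact permutation p = 0.1). Entries above 0 numbered 181, 164 and 157 in WT-ABA and 175, 200 and 208 in mkkk18-ABA, a difference of 27 with an exact permutation p of 0.2. Counted from 0.5 RPM or from 1 RPM the difference was 18.7 and 20.7 entries, without overlap (exact permutation p = 0.1 for each). Among the few libraries with an estimated total of reads, the number above 0 was higher at the larger total within each group. In WT-ABA it was 157 at 5540000 reads and 164 at 6570000, and in mkkk18-ABA 175 at 5720000 and 200 at 8040000. The library of each group without an estimate had the most entries. Whether depth accounts for the difference was not tested.

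RPM were brought to a common scale with factors that are the median ratio of each library to the mean library. These factors were 0.664, 0.886 and 1.06 in WT-ABA and 1.34, 1.23 and 1.19 in mkkk18-ABA, a shift of 0.55 in log2 fold changes against the deposited RPM before the pseudocount is added, and less than that in low miRNAs. The median log2 fold change of all tested miRNAs was -0.09 on the common scale and 0.39 on the deposited RPM. A miRNA was tested when its mean over the 6 libraries was at least 1 RPM, which 128 of the 350 entries met. Of these, 109 reached that mean in both groups, 18 only in mkkk18-ABA and 1 only in WT-ABA.

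Of the 128 tested miRNAs, 11 were higher in mkkk18-ABA than in WT-ABA at an adjusted p under 0.05, which is 8.59% of those tested, and 0 were lower. At an unadjusted p under 0.05 there were 36, or 28.1%, of which 25 were higher and 11 lower. The 3 mkkk18-ABA libraries all lay above the 3 WT-ABA libraries for 17.2% of the tested miRNAs on the common scale and for 32.8% on the deposited RPM, and all below for 14.1% and 0.781%, so that 31.2% did not overlap on the common scale. The miRNAs higher in mkkk18-ABA were miR161.2, miR846-3p, miR447a.2-3p, miR1886.2, miR860, miR829-5p, miR400, miR393a-3p, miR403-3p, miR158a-5p and miR779.2. Of the 11, 5 had a mean of at least 1 RPM in both groups and 6 in mkkk18-ABA only, so the latter were tested through the group in which they were high.

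The mature sequences of these 11 miRNAs are shown because they share a property that the comparison did not use. Each has 21 nt, and they are written 5′ to 3′ in the DNA letters of the deposited tables, with the seed (bases 2 to 8) in capitals.
miR161.2: tCAATGCAttgaaagtgacta
miR846-3p: tTGAATTGaagtgcttgaatt
miR447a.2-3p: tATGGAAGaaattgtagtatt
miR1886.2: tGAGATGAaatctttgattgg
miR860: tCAATAGAttggactatgtat
miR829-5p: aCTTTGAAgctttgatttgaa
miR400: tATGAGAGtattataagtcac
miR393a-3p: aTCATGCTatctctttggatt
miR403-3p: tTAGATTCacgcacaaactcg
miR158a-5p: cTTTGTCTacaattttggaaa
miR779.2: tGATTGGAaatttcgttgact

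Among the 11 no seed occurs more than once, so they form no seed family. They begin with T in 8 cases, against 60.2% of all tested miRNAs. They are poor in G and C. Their GC content ran from 23.8% to 42.9% with a median of 28.6%, against a median of 47.6% over all 128 tested.

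miR161.2 is cut from the MIR161 hairpin and is known to target mRNAs of pentatricopeptide repeat (PPR) proteins, which bind RNA in mitochondria and chloroplasts. It had 5.7, 5.5 and 5.1 RPM in WT-ABA and 54.1, 118.6 and 40.4 RPM in mkkk18-ABA. Every mkkk18-ABA library lay above every WT-ABA library, on both scales. The log2 fold change on the scale log2(scaled RPM + 0.5), which is used for all fold changes here and understates those of low miRNAs, was 2.91 (SE 0.42, limma adjusted p = 0.000364), a 7.51-fold difference.

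A second mature form, miR161.1, comes from the same hairpin, and its sequence begins 9 bases further along. In TAIR10.1, miR161.2 matched chr1:17825722-17825742 and miR161.1 chr1:17825731-17825751, both on the plus strand inside the MIR161 gene (AT1G48267). The stretch that holds both forms is shown with the 12 bases they share in capitals.
miR161.2 and miR161.1 together: tcaatgcatTGAAAGTGACTAcatcggggt

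miR161.1 had 296.2, 495.8 and 396.5 RPM in WT-ABA and 673.7, 417.4 and 387.3 RPM in mkkk18-ABA. Its groups overlapped and its log2 fold change was -0.25 (SE 0.33, limma adjusted p = 0.658), with the opposite sign on the deposited RPM (0.30). Its GC content is 47.6%, that of miR161.2 is 33.3%.

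Since both forms are read in the same library, their ratio needs no scale. miR161.2 amounted to 1.92%, 1.11% and 1.29% of miR161.1 in WT-ABA and to 8.03%, 28.4% and 10.4% in mkkk18-ABA. The groups did not overlap (log2 difference 3.25, exact permutation p = 0.1, the smallest that 3 against 3 allows). In the mock libraries the ratio was 30.8%, 35.8% and 35.5% in WT and 21.9%, 19.5% and 19.6% in mkkk18. The ratio of WT-ABA was thus the lowest of these 4 groups in all its libraries, and without ABA mkkk18 lay below WT (log2 difference -0.74, exact permutation p = 0.1). This ratio and the other ratios between forms of a precursor were chosen after the values were seen.

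miR400 is predicted to target PPR mRNAs as well, and its mature sequence lies at chr1:11785947-11785967 (TAIR10.1, plus strand), in MIR400 and within AT1G32583 outside the annotated exons of that gene. It had 0.7, 0.2 and 1.8 RPM in WT-ABA and 4.4, 11.4 and 3.8 RPM in mkkk18-ABA. All 3 mkkk18-ABA libraries were higher, and the log2 fold change was 1.93 (SE 0.50, limma adjusted p = 0.0235). It passed the threshold neither without WT-ABA replicate 2 (adjusted p = 0.0825) nor without mkkk18-ABA replicate 2 (0.165) or 3 (0.068).

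The sites in annotated RefSeq mRNAs that pair best with miR161.2 and miR400 lie in PPR mRNAs, in the coding part, and are shown as the mRNA reads, with paired bases in capitals and mismatches in lower case. They are matches of letters, and the level of these mRNAs was not measured here.
Site for miR161.2 in AT1G62590: TAGTCACgTTCAATGCATTGA
Site for miR400 in AT1G06580: GTGACTTATAATACTCTCATA

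The site in AT1G62590 lies on the minus strand at chr1:23178190-23178210 with 1 mismatch, and 4 genes hold a site for miR161.2 with 1 mismatch. The site in AT1G06580 lies on the minus strand at chr1:2014950-2014970 with 0 mismatches, so the letters of miR400 also match the other strand of that gene.

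miR846-3p is known to target jacalin lectin mRNAs, whose products bind sugars, and is cut from MIR846 (AT1G61226) at chr1:22577662-22577682 (TAIR10.1, plus strand). It had 11.1, 9.6 and 8.3 RPM in WT-ABA and 89.8, 109.0 and 59.8 RPM in mkkk18-ABA. No library of one group reached into the other, and the log2 fold change was 2.52 (SE 0.38, limma adjusted p = 0.000364), a 5.73-fold difference. The other arm of the hairpin, miR846-5p, was low, with 0.4, 1.2 and 0.0 RPM in WT-ABA and 1.4, 2.5 and 1.8 RPM in mkkk18-ABA. Its log2 fold change was 0.98 (SE 0.48, limma adjusted p = 0.186), and its groups overlapped on the common scale. The best site for miR846-3p lies in the coding part of the jacalin lectin gene AT1G61230, the neighbour of its own hairpin, at chr1:22579561-22579581 with 1 mismatch.
Site for miR846-3p in AT1G61230: cATTCAAGCACTTCAATTCAA

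miR403-3p acts within the silencing machinery itself, on the mRNAs of the ARGONAUTE proteins AGO2 and AGO3, and was the most abundant of the 11. It had 397.1, 250.5 and 233.6 RPM in WT-ABA and 754.7, 1189 and 1543 RPM in mkkk18-ABA. The groups were apart on the deposited RPM but overlapped on the common scale, where WT-ABA replicate 1 lay above mkkk18-ABA replicate 1. Its log2 fold change was 1.42 (SE 0.41, limma adjusted p = 0.0464). The call was lost without WT-ABA replicate 2 (adjusted p = 0.0893) or 3 (0.19) and without mkkk18-ABA replicate 2 (0.127) or 3 (0.2), and without mkkk18-ABA replicate 1 the log2 fold change was 1.82 (adjusted p = 0.00398). With 42.9% its GC content was the highest of the 11. The mature sequence lies in MIR403 (AT2G47275) at chr2:19415154-19415174, and its best site lies in an untranslated part of the AGO2 mRNA (AT1G31280) at chr1:11185223-11185243, both on the plus strand, with 1 mismatch.
Site for miR403-3p in AGO2: gGAGTTTGTGCGTGAATCTAA

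miR393a-3p lies opposite miR393-5p, the arm known to act on the TIR1 and AFB auxin receptors, in the MIR393a hairpin (AT2G39885, chr2:16652205-16652225, plus strand). It had 1.7, 1.7 and 1.4 RPM in WT-ABA and 7.5, 15.2 and 4.9 RPM in mkkk18-ABA. All mkkk18-ABA libraries were higher, with a log2 fold change of 1.58 (SE 0.44, limma adjusted p = 0.0361). The call was lost without WT-ABA replicate 2 (adjusted p = 0.0608) or 3 (0.121) and without mkkk18-ABA replicate 2 (0.165) or 3 (0.0527). The 5p arm, which MIR393a and MIR393b share, had 67.3, 34.1 and 68.6 RPM in WT-ABA and 39.7, 68.4 and 102.4 RPM in mkkk18-ABA, and its groups overlapped (log2 fold change -0.27, SE 0.44, limma adjusted p = 0.708). Its sign turned without mkkk18-ABA replicate 1 (0.21) and without WT-ABA replicate 1 (0.06). miR393a-3p stood at 2.53%, 4.99% and 2.04% of that arm in WT-ABA and at 18.9%, 22.2% and 4.79% in mkkk18-ABA. Here the groups overlapped, since mkkk18-ABA replicate 3 lay below WT-ABA replicate 2 (exact permutation p = 0.2).

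miR158a-5p comes from the MIR158a hairpin (AT3G10745, chr3:3366391-3366411, minus strand), which RefSeq annotates as a miRNA of unknown function. It had 0.4, 0.9 and 0.2 RPM in WT-ABA and 5.6, 3.1 and 1.7 RPM in mkkk18-ABA. The groups did not overlap, and the log2 fold change was 1.52 (SE 0.45, limma adjusted p = 0.0464). Leaving out WT-ABA replicate 3 or mkkk18-ABA replicate 1, 2 or 3 ended the call, with adjusted p of 0.19, 0.0774, 0.165 and 0.0677. The abundant arm of the same hairpin, miR158a-3p, had 1551, 1814 and 1057 RPM in WT-ABA and 3780, 5140 and 4828 RPM in mkkk18-ABA. All 3 mkkk18-ABA libraries lay above WT-ABA, but the adjusted p of its log2 fold change of 1.11 (SE 0.37) was 0.0686. Without mkkk18-ABA replicate 1 it passed (1.37, limma adjusted p = 0.00857), as it did without WT-ABA replicate 1 (1.34, 0.0329).

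The other 5 have few annotated targets or none. miR447a.2-3p, annotated as acting on mRNAs related to 2-phosphoglycerate kinase, had 1.1, 1.5 and 0.5 RPM in WT-ABA and 10.5, 23.1 and 9.1 RPM in mkkk18-ABA. The groups were far apart (log2 fold change 2.72, SE 0.46, limma adjusted p = 0.000846). Its sequence occurs in both MIR447a and MIR447b (chr4:1528148-1528168 and chr4:1535440-1535460, minus strand), so the gene of origin is not known. The form annotated as miR447a-3p and miR447b stayed at 0.5 to 1.3 RPM in WT-ABA and 0.6 to 1.9 RPM in mkkk18-ABA and was not tested.

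miR1886.2 had 0.4, 0.8 and 1.3 RPM in WT-ABA and 5.8, 6.3 and 5.7 RPM in mkkk18-ABA. The groups did not overlap, with a log2 fold change of 1.92 (SE 0.38, limma adjusted p = 0.00418). Its hairpin MIR1886 (AT2G08855) lies within an exon of AT2G37160, and the mature sequence is at chr2:15611882-15611902. Other forms of that hairpin, miR1886.1 and miR1886.3, did not exceed 0.5 RPM in any of the 6 libraries.

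miR860 had 0.3, 0.0 and 0.0 RPM in WT-ABA and 3.0, 3.1 and 1.9 RPM in mkkk18-ABA. miR829-5p had 0.4, 0.0 and 0.0 RPM in WT-ABA and 2.8, 2.1 and 1.6 RPM in mkkk18-ABA. Both were listed at 0 in WT-ABA replicates 2 and 3, and the worth of 1 read could not be estimated from the rounded values of replicate 1. The mkkk18-ABA values were 1.6 to 3.1 RPM, so the groups did not overlap but the sizes are imprecise. The log2 fold change was 2.06 for miR860 (SE 0.43, limma adjusted p = 0.00438) and 1.75 for miR829-5p (SE 0.44, limma adjusted p = 0.0219). Both depend on the pseudocount, and with 0.1 in place of 0.5 they were 3.63 and 3.22. miR860 lies in an exon of FC1, a ferrochelatase of heme synthesis (chr5:9098876-9098896), and miR829-5p in MIR829 (chr1:11834153-11834173, minus strand), and RefSeq gives no function for either miRNA. Without mkkk18-ABA replicate 2 the adjusted p of miR860 was 0.0739. For miR829-5p it was 0.0808 without WT-ABA replicate 3 and 0.0677 without mkkk18-ABA replicate 3, and its mean fell under the minimum for testing without mkkk18-ABA replicate 1 or 2.

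miR779.2 (MIR779, chr2:9560866-9560886, function not annotated) had 0.4, 1.1 and 0.4 RPM in WT-ABA and 3.0, 6.5 and 2.3 RPM in mkkk18-ABA. The groups were apart, with a log2 fold change of 1.51 (SE 0.45, limma adjusted p = 0.0464). The call was lost without WT-ABA replicate 3 (adjusted p = 0.174) and without mkkk18-ABA replicate 2 (0.285) or 3 (0.0865).

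**Figure D1:**
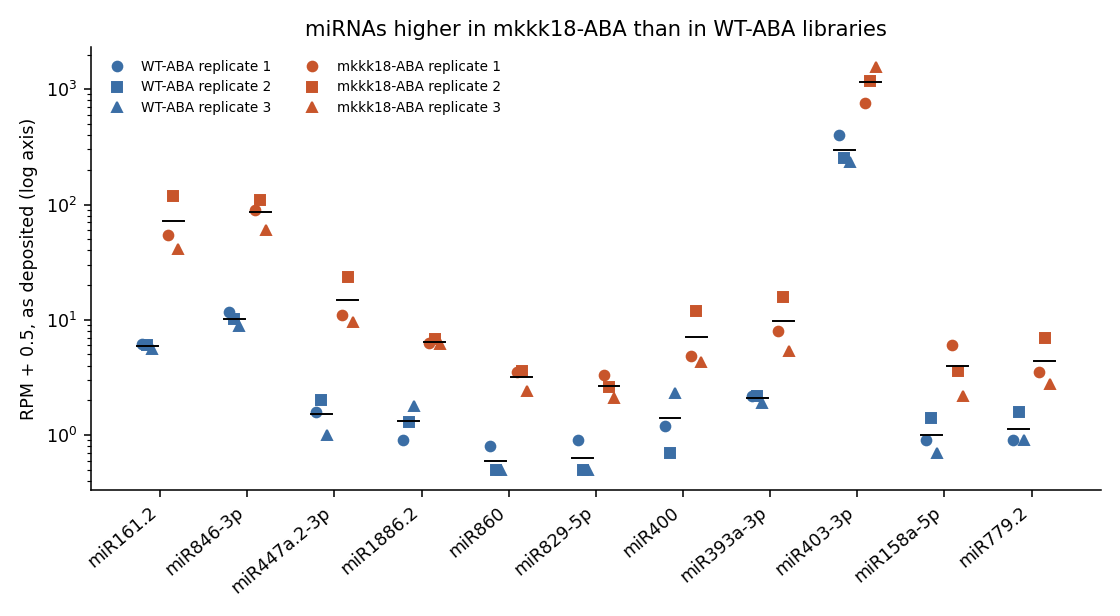
RPM as deposited plus 0.5, on a log axis, of the 11 miRNAs that were higher in mkkk18-ABA, with each library as a point and the mean of each group as a line. The mkkk18-ABA points lie above the WT-ABA points for each miRNA shown, from miR829-5p near the bottom (at most 2.8 RPM) to miR403-3p at the top (up to 1543 RPM).

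The threshold fell between miR779.2 and miR397b. miR397b, which acts on laccase mRNAs and rises when copper is short, had 19.9, 49.8 and 29.2 RPM in WT-ABA and 151.9, 151.3 and 63.4 RPM in mkkk18-ABA. The groups did not overlap on the deposited RPM but did on the common scale, and the log2 fold change was 1.32 (SE 0.41, limma adjusted p = 0.0506). It passed without WT-ABA replicate 2 (1.64, limma adjusted p = 0.021), without mkkk18-ABA replicate 1 (1.24, 0.0466) and without mkkk18-ABA replicate 3 (1.72, 0.0373).

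The fold changes followed the GC content of the mature sequences. Across the 128 tested miRNAs Pearson's r was -0.70, and the log2 fold change fell by 0.622 for each 10 percentage points of GC. This is a description across miRNAs, which share libraries and are not independent replicates. All 15 tested miRNAs with a GC content under 35% had a log2 fold change above 0, with a median of 1.58, and 10 of the 11 that passed were among them. Of these 15, 8 had a mean of at least 1 RPM in mkkk18-ABA only, so they were tested through the group in which they were high and the filter in part fixed their sign. The other 7 ran from 0.22 to 2.91. From 35% to under 45% the median was 0.32 (39 miRNAs, 1 passed), from 45% to under 55% it was -0.32 (48 miRNAs, 0 passed), and at 55% or more it was -0.50 (26 miRNAs, 0 passed). Without the group under 35%, r was -0.49 over 113 miRNAs. Without mkkk18-ABA replicate 1 the fall was 0.785 for each 10 points, and leaving out any other library gave 0.491 to 0.724.

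The same slope can be taken for each library against the mean of the WT-ABA libraries. It was -0.33, -0.87 and -0.67 log2 units for each 10 points of GC in mkkk18-ABA replicates 1, 2 and 3, and -0.19, 0.05 and 0.15 in WT-ABA. mkkk18-ABA replicate 2, the library with the lowest GC content, had the steepest slope, and replicate 1 lay nearest to WT-ABA. Without ABA the fold changes between mkkk18 and WT had r = -0.06 with GC content over 134 tested miRNAs.

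When a straight line on GC content was taken out of each library, 8 miRNAs passed (6.25%), 5 of them higher (3.91%) and 3 lower (2.34%) in mkkk18-ABA. Of the 11, 3 still passed: miR161.2 (log2 fold change 1.96, limma adjusted p = 0.00106), miR846-3p (1.27, 0.0281) and miR403-3p (1.06, 0.0494). For the other 8 the value ran from 0.27 for miR158a-5p to 1.18 for miR447a.2-3p, with adjusted p of 0.0657 or more. With the line taken out and mkkk18-ABA replicate 1 left out, miR161.2 (1.91, limma adjusted p = 0.00483) and miR403-3p (1.33, 0.0254) passed, and miR846-3p did not (0.98, 0.128). Whether the GC dependence arose in the plants or in the making of the libraries was not tested.

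**Figure D2:**
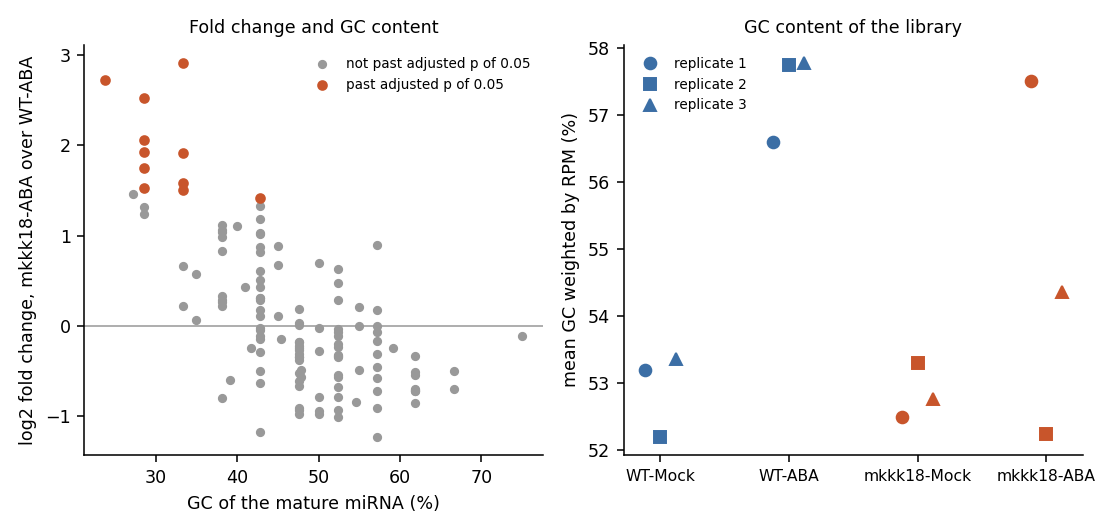
Left, log2 fold change of mkkk18-ABA over WT-ABA against the GC content of the mature sequence for the 128 tested miRNAs, with those past an adjusted p of 0.05 in orange; 10 of the 11 lie under 35% GC. Right, mean GC content of the listed miRNAs weighted by RPM in each library of 4 groups, where mkkk18-ABA replicate 1 (57.5%) lies among the WT-ABA libraries (56.6% to 57.8%). Weighted by log2 values, which are not drawn, that library had 48.2%, below the WT-ABA libraries (48.7% to 49.3%).

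Forms of the same precursor differ in GC content as well, and their ratio was taken for 6 pairs, chosen after the values were seen. In all 6 the form with less GC was relatively higher in mkkk18-ABA. The groups did not overlap in 3 pairs (miR161, miR824 and miR157, exact permutation p = 0.1 and 0.2 adjusted over the 6) and overlapped in the other 3 (miR393a, miR158a and miR403). For miR161, miR393a and miR158a the form with less GC was itself called higher, so the choice in part fixed the direction. Tested pairs that were not taken went both ways. The form with less GC had the lower log2 fold change in miR822 and miR398a, for example, and the higher in miR472. The 6 pairs thus do not describe pairs in general. miR403-5p stood at 0.126%, 0.120% and 0.599% of miR403-3p in WT-ABA and at 0.305%, 0.513% and 0.214% in mkkk18-ABA, with the highest value in WT-ABA (log2 difference 0.63, exact permutation p = 0.6). For miR158a, the 5p arm was at 0.0258%, 0.0496% and 0.0189% of the 3p arm in WT-ABA and at 0.148%, 0.0603% and 0.0352% in mkkk18-ABA (log2 difference 1.23, exact permutation p = 0.2). For miR824, which acts on the mRNA of the stomatal regulator AGL16, the GC-richer 3p arm stood at 1101%, 1458% and 1316% of the 5p arm in WT-ABA and at 832%, 342% and 530% in mkkk18-ABA. The groups did not overlap (log2 difference -1.27, exact permutation p = 0.1). In the mock libraries the ratio was 198% to 252% in WT and 250% to 310% in mkkk18, so the WT-ABA libraries were the highest of the 4 groups. The arm miR824-5p had 14.2, 22.7 and 23.6 RPM in WT-ABA and 56.5, 78.9 and 47.1 RPM in mkkk18-ABA, all higher, with a log2 fold change of 1.03 (SE 0.35, limma adjusted p = 0.0718) that passed without mkkk18-ABA replicate 1 (1.19, 0.0291).

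For miR157, which acts on SPL mRNAs, the 3p form of MIR157a and MIR157b stood at 66.0%, 112% and 134% of the 5p form in WT-ABA and at 48.6%, 15.2% and 26.2% in mkkk18-ABA. The groups again did not overlap (log2 difference -1.89, exact permutation p = 0.1), and the mock libraries had 9.49% to 11.8% in WT and 13.1% to 17.5% in mkkk18. The 5p form is shared with MIR157c, so this ratio is not that of a single precursor.

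**Figure D3:**
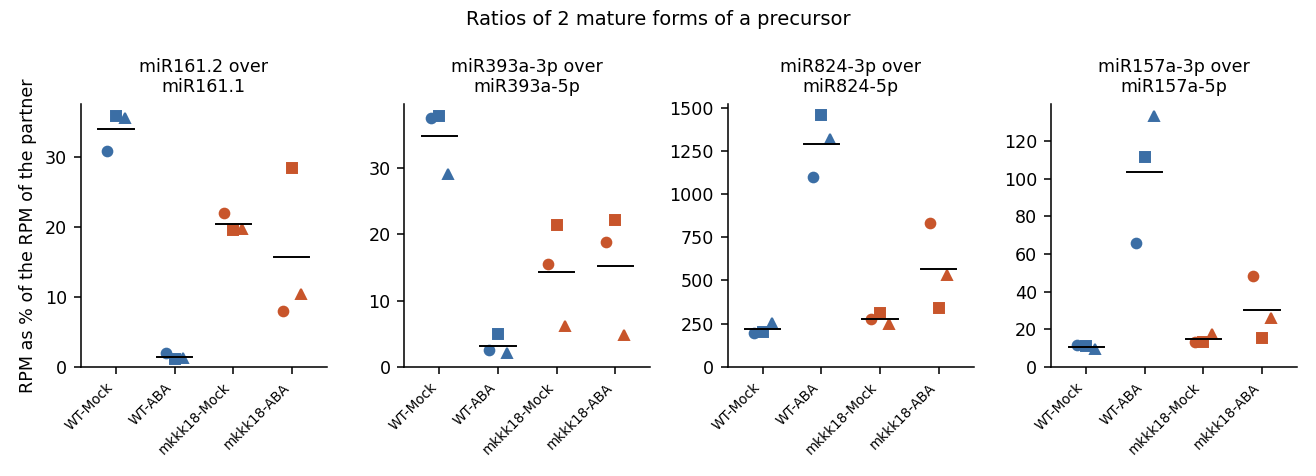
RPM of one mature form as a percentage of the RPM of its partner, in each library of 4 groups (points, with group means as lines), for miR161, miR393a, miR824 and miR157a. In WT-ABA miR161.2 was at 1.11% to 1.92% of miR161.1 and in mkkk18-ABA at 8.03% to 28.4%, while the 3p forms of miR824 and miR157a were higher in WT-ABA.

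Grouped by the kind of target, the 16 lists held 120 of the tested miRNAs, and the median of all 128 was -0.09, with 8.59% of them called. The list for PPR genes had 2 of 3 tested members higher (miR161.2 and miR400) and a median log2 fold change of 1.93, and that for jacalin lectins 1 of 3 (miR846-3p) and a median of 0.98. The list of young families had 5 of 27 higher (miR447a.2-3p, miR860, miR829-5p, miR158a-5p and miR779.2), with a median of 0.47. The silencing machinery had 1 of 7 higher (miR403-3p) and a median of -0.24, and the list of auxin response factors and receptors 1 of 11 (miR393a-3p), close to the share over all tested, and a median of -0.18. miR1886.2 is in none of the lists. The other 11 lists had 0 members past the threshold in either direction. The lists differ in GC content too, with a median of 33.3% for PPR genes and 61.9% for HD-ZIP III factors.

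Development was covered by several lists with no call. The miRNAs of the juvenile phase, miR156 and miR157, which hold back SPL factors in young plants, had 10 tested members and a median log2 fold change of -0.61, against -0.09 for all tested. Of the 10, 7 are the opposite (3p) strands, at -1.23 to -0.57, and the 3 strands that pair with SPL mRNAs were at -0.02 to 0.89. Among these, miR156-5p, added after its values were seen, had 265.4, 222.0 and 257.3 RPM in WT-ABA and 266.3, 363.9 and 467.2 RPM in mkkk18-ABA, apart on the deposited RPM but not on the common scale (log2 fold change -0.02, SE 0.36, limma adjusted p = 0.981). miR157-5p, the most abundant of them, had 191.4, 163.9 and 171.2 RPM in WT-ABA and 401.2, 545.3 and 479.6 RPM in mkkk18-ABA, with no overlap and a log2 fold change of 0.88 (SE 0.34, limma adjusted p = 0.116). miR156f-3p, the other strand of a miR156 hairpin, had 5.0, 10.8 and 7.4 RPM in WT-ABA and 7.0, 3.5 and 3.1 RPM in mkkk18-ABA, with a log2 fold change of -1.23 (SE 0.40, limma adjusted p = 0.0669). Both passed without mkkk18-ABA replicate 1 (1.12, limma adjusted p = 0.0291, and -1.43, 0.0131). miR172, which acts on AP2-like factors and marks the adult phase, had 3.5, 2.7 and 3.1 RPM in WT-ABA for the form shared by MIR172a and MIR172b and 4.5, 18.4 and 13.8 RPM in mkkk18-ABA. mkkk18-ABA replicate 1 was close to WT-ABA here, and the log2 fold change of 1.12 (SE 0.49, limma adjusted p = 0.143) became 1.80 (0.00423) without it.

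The HD-ZIP III list, miR165 and miR166, which set the upper and lower faces of leaves, took the largest part of the reads. miR166-3p had 16216, 29775 and 28240 RPM in WT-ABA and 41267, 16759 and 19830 RPM in mkkk18-ABA. miR165-3p had 4146, 7251 and 7004 RPM in WT-ABA and 11270, 2981 and 4548 RPM in mkkk18-ABA. In both, mkkk18-ABA replicate 1 was the highest of the 6 libraries and replicates 2 and 3 lay closest to WT-ABA replicate 1. Their log2 fold changes were -0.55 (SE 0.35, limma adjusted p = 0.313) and -0.70 (SE 0.40, 0.253), and without mkkk18-ABA replicate 1 they passed at -0.81 (0.0131) and -1.12 (0.00857). All 5 tested members of the list were below 0, from -0.72 to -0.31, and the sign of miR166-3p, miR165-3p and miR166a-5p turned when the line on GC content was taken out (0.28, 0.42 and 0.11). miR166a-5p, the other strand, had 106.0 to 249.1 RPM in WT-ABA and 107.2 to 243.7 RPM in mkkk18-ABA (log2 fold change -0.72, SE 0.36, limma adjusted p = 0.188).

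The 5 tested members of miR159 and miR319, which act on MYB and TCP factors, lay from -0.33 to -0.05. miR159a had 2974 to 4907 RPM in WT-ABA and 4124 to 6624 RPM in mkkk18-ABA, with a log2 fold change of -0.05 (SE 0.32, limma adjusted p = 0.938) whose sign turned on the deposited RPM (0.50), without WT-ABA replicate 2 (0.08) and without mkkk18-ABA replicate 3 (0.15). miR159b-3p (-0.15, SE 0.31) and miR319c (-0.33, SE 0.37) had adjusted p of 0.778 and 0.649, and both were above 0 on the deposited RPM (0.40 and 0.22). An adjusted p this high does not show that the levels were equal.

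In the auxin list, miR160, which acts on ARF10, ARF16 and ARF17, had 543.9, 468.9 and 661.9 RPM in WT-ABA and 676.6, 359.0 and 367.1 RPM in mkkk18-ABA. On the common scale the mkkk18-ABA libraries all lay below WT-ABA (log2 fold change -0.86, SE 0.34, limma adjusted p = 0.116), and without mkkk18-ABA replicate 1 the difference passed (-1.03, 0.0295). miR167a-3p, the opposite strand of the miRNA of ARF6 and ARF8, had 730.0, 858.0 and 1489 RPM in WT-ABA and 1074, 1107 and 1113 RPM in mkkk18-ABA, with a log2 fold change of -0.38 (SE 0.32, limma adjusted p = 0.434) and 0.17 on the deposited RPM. In the list of NAC, GRF and GRAS factors, with 14 tested and a median of -0.13, miR396a-5p had a log2 fold change of 0.29 (SE 0.34, limma adjusted p = 0.651). miR171b-5p, at 0.2 to 1.0 RPM in WT-ABA and 1.4 to 2.6 RPM in mkkk18-ABA, had 1.06 (SE 0.47, limma adjusted p = 0.143) and passed without WT-ABA replicate 1 (1.58, 0.0267).

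No tested member of the copper list or of the phosphate and sulfate list passed the threshold. Closest to it was miR397b of the copper list, described above. In the copper list, with 8 tested and a median of -0.33, miR398b-3p, which acts on copper superoxide dismutase mRNAs, had 1054 to 1745 RPM in WT-ABA and 1094 to 2161 RPM in mkkk18-ABA (log2 fold change -0.45, SE 0.33, limma adjusted p = 0.376), and its sign turned on the deposited RPM (0.10). In the phosphate and sulfate list, with 10 tested and a median of -0.55, miR827 had 438.0 to 695.4 RPM in WT-ABA and 793.2 to 1514 RPM in mkkk18-ABA, apart on the deposited RPM but not on the common scale (0.22, SE 0.34, limma adjusted p = 0.708). Without mkkk18-ABA replicate 2 miR827 was at -0.04, and with the line on GC content taken out at -0.73. miR2111b-3p had 25.5, 37.0 and 42.6 RPM in WT-ABA and 26.8, 21.4 and 30.4 RPM in mkkk18-ABA. On the common scale all 3 mkkk18-ABA libraries were lower (log2 fold change -0.93, SE 0.34, limma adjusted p = 0.0954).

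Among the remaining lists, miR169h, one of the drought-related miR169 family that acts on NF-YA factors, had 4.0 to 7.3 RPM in WT-ABA and 9.1 to 21.3 RPM in mkkk18-ABA (log2 fold change 0.63, SE 0.43, limma adjusted p = 0.342). miR169f-3p had 0.3, 0.3 and 0.7 RPM in WT-ABA and 2.1, 1.4 and 1.5 RPM in mkkk18-ABA, without overlap (0.90, SE 0.40, limma adjusted p = 0.143), and with its GC content of 57.1% it passed once the line on GC was taken out (1.43, 0.0281). miR390, which starts tasiRNA production from TAS3, had 156.5 to 284.9 RPM in WT-ABA and 154.7 to 249.0 RPM in mkkk18-ABA (-0.72, SE 0.32, limma adjusted p = 0.15). miR472-3p, which acts on immune receptor (NLR) mRNAs, had 135.7 to 564.7 RPM in WT-ABA and 137.5 to 384.6 RPM in mkkk18-ABA (-0.94, SE 0.42, limma adjusted p = 0.143). It passed without WT-ABA replicate 1 (-1.32, 0.0329) and without mkkk18-ABA replicate 1 (-1.21, 0.0416). miR824-3p had 156.4 to 331.0 RPM in WT-ABA and 249.8 to 470.3 RPM in mkkk18-ABA (-0.22, SE 0.34, limma adjusted p = 0.708).

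**Figure D4:**
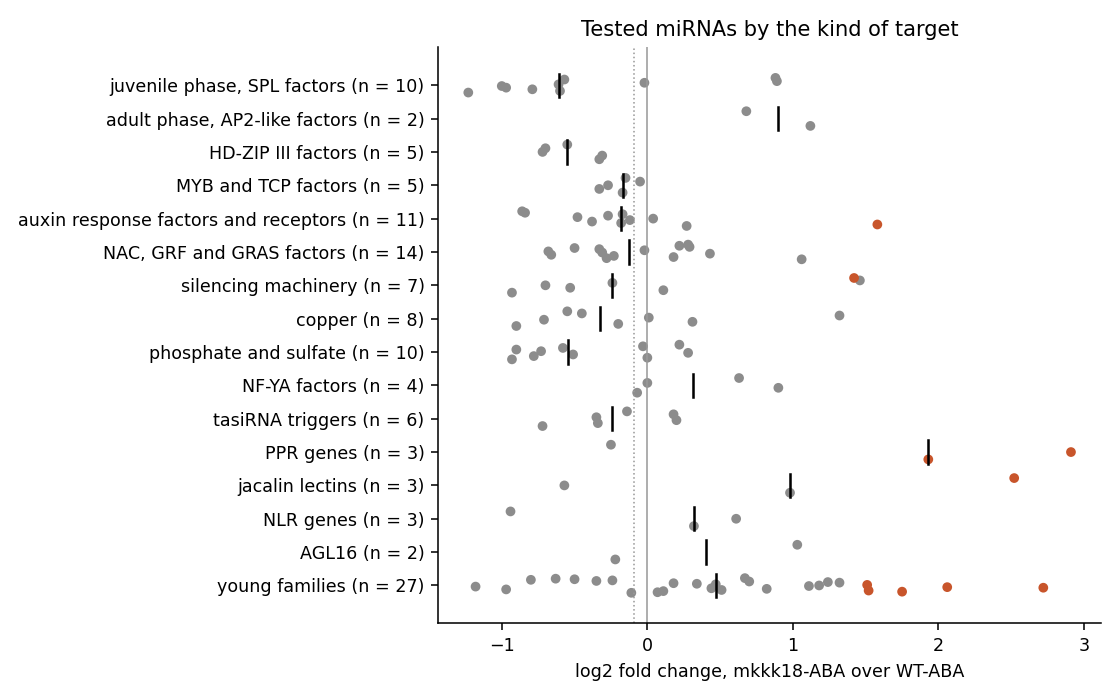
Log2 fold change of mkkk18-ABA over WT-ABA for each tested miRNA of the 16 lists (points; orange, past an adjusted p of 0.05), with the median of each list as a vertical bar, 0 as a solid line and the median of all tested (-0.09) as a dotted line. The list for PPR genes has the highest median (1.93) and that of the juvenile phase, where 7 of 10 members are 3p strands, the lowest (-0.61).

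Without ABA the same genotypes differed in other miRNAs. Of 134 tested, 30 passed (22.4%), 9 higher (6.72%) and 21 lower (15.7%) in mkkk18-Mock than in WT-Mock. Of the 11 miRNAs above, 4 were among them, and 3 of these 4 had the opposite sign. miR161.2 had 99.0, 179.4 and 193.0 RPM in WT-Mock and 128.5, 102.4 and 72.9 RPM in mkkk18-Mock, a log2 fold change of -0.79 (SE 0.20, limma adjusted p = 0.0053). miR393a-3p was at -0.92 (SE 0.22, limma adjusted p = 0.00352) and miR779.2 at -1.25 (SE 0.24, 0.000426), while miR403-3p was at 0.55 (SE 0.20, 0.0398). miR846-3p had 116.7, 183.8 and 156.0 RPM in WT-Mock and 225.4, 175.4 and 102.7 RPM in mkkk18-Mock, which overlap (-0.08, SE 0.21, limma adjusted p = 0.803). These mock calls depended on the fit: on the deposited RPM 7 passed, and with all 24 libraries sharing the estimate of the spread 0 passed, with 24 at an unadjusted p under 0.05. Without WT-Mock replicate 3 there were 9 and without mkkk18-Mock replicate 3 there were 17.

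The test of whether the genotype difference under ABA differed from that without ABA was fitted over all 24 libraries. Of 129 tested, 17 passed (13.2%), 13 with a higher (10.1%) and 4 with a lower (3.1%) difference under ABA. Of the 11 miRNAs, 8 were among the 17. The 11 were picked by the difference under ABA, which is part of this change and comes from the same libraries. The overlap was thus in part fixed by that choice and is no separate support. The change was 3.68 for miR161.2 (SE 0.86, limma adjusted p = 0.0142), 2.59 for miR846-3p (SE 0.59, 0.0142) and 2.98 for miR447a.2-3p (SE 0.75, 0.0158). miR860 (1.43, SE 0.70, limma adjusted p = 0.14), miR829-5p (1.06, SE 0.52, 0.14) and miR403-3p (0.84, SE 0.53, 0.254) did not pass. miR2111b-3p went the other way (-1.70, SE 0.42, limma adjusted p = 0.0158), with 6.6, 11.9 and 6.5 RPM in WT-Mock and 21.4, 14.5 and 12.5 RPM in mkkk18-Mock. On the deposited RPM 0 of the 129 passed, with 30 at an unadjusted p under 0.05. The count was 0 without WT-Mock replicate 3 (39 at an unadjusted p under 0.05) and 0 without mkkk18-ABA replicate 2 (35), 10, 11, 10, 9 and 3 without WT-Mock replicates 1 and 2 and mkkk18-Mock replicates 1, 2 and 3, 31 and 8 without WT-ABA replicates 1 and 3, and 26 without mkkk18-ABA replicate 1.

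**Figure D5:**
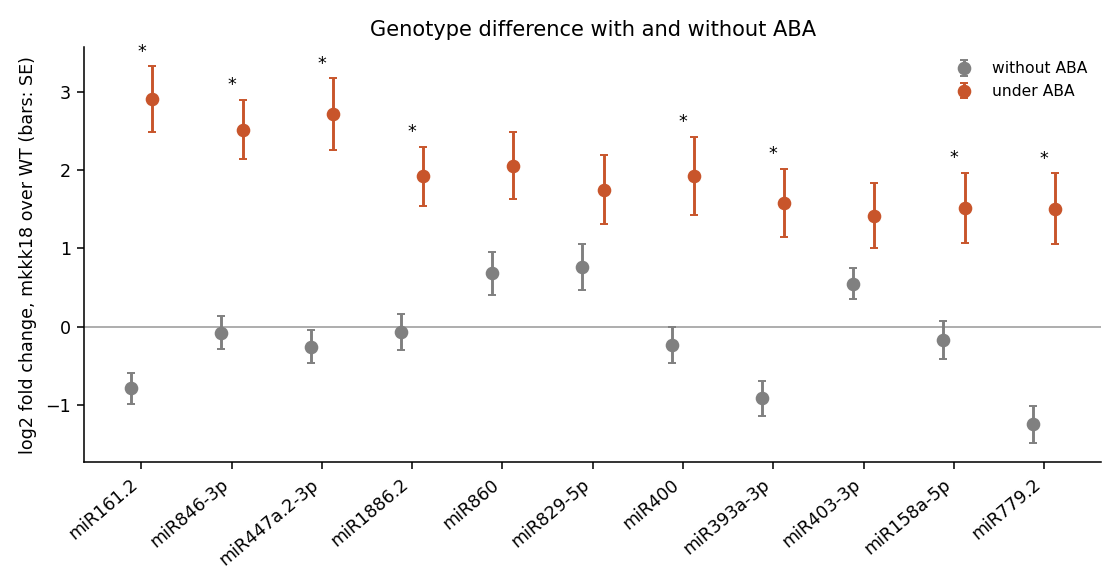
Log2 fold change of mkkk18 over WT with its SE, under ABA (orange) and without ABA (grey), for the 11 miRNAs higher in mkkk18-ABA. Asterisks mark the 8 for which the change between both conditions passed an adjusted p of 0.05; miR161.2 is at 2.91 under ABA and at -0.79 without.

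The levels of these miRNAs in the whole series set the WT-ABA libraries beside the other 21. Those 21 include the 3 mkkk18-ABA libraries, against which these miRNAs were picked as lower in WT-ABA, so that part was fixed by the choice. On the deposited RPM, miR161.2 had in the 3 WT-ABA libraries at most 5.7 RPM, and in the other 21 libraries it had 6.7 to 193.0 RPM with a median of 102.4. miR846-3p had at most 11.1 RPM in WT-ABA and 11.7 to 225.4 RPM (median 119.4) elsewhere. For the other 9 miRNAs, on the deposited RPM, 1 or 2 of the 21 libraries were no higher than the highest WT-ABA library, and these were abi1td-ABA replicate 2 and mkkk17-Mock replicate 1. The GC content weighted by RPM was 56.7% and 54.8% in those libraries. Their summed RPM was 32336 and 16515, the latter the lowest of the series. Their factors in the fit of all 24 libraries were 0.671 and 0.369, against 0.633 to 0.997 in WT-ABA. What their low places on the deposited RPM rest on was not tested.

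Under ABA mkkk18 was also compared with the mutants of the paralogous kinase MAPKKK17 and of the phosphatase ABI1, which share the mkkk18-ABA libraries with the comparison above. Against mkkk17-ABA 0 of 129 miRNAs passed, with 14 (10.9%) at an unadjusted p under 0.05, and against abi1td-ABA 0 of 129 passed, with 6 (4.65%). Without mkkk17-ABA replicate 1 and without abi1td-ABA replicate 2 the count was 1 in each. miR161.2 had 123.9, 143.3 and 167.6 RPM in mkkk17-ABA, all above the mkkk18-ABA libraries on the deposited RPM. On the common scale of the 24 libraries the groups overlapped, with 78.7, 76.0 and 117.2 in mkkk17-ABA and 43.6, 99.7 and 37.1 in mkkk18-ABA (log2 fold change of mkkk18-ABA over mkkk17-ABA -0.70, limma adjusted p = 0.666). In abi1td-ABA it had 135.5, 6.7 and 75.3 RPM, on both sides of mkkk18-ABA (0.27, limma adjusted p = 0.972). A count of 0 does not show that the mutants were alike.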

How the data were processed

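Small RNA of whole seedlings was sequenced in 24 libraries. Per the study's methods, the authors clipped adapters, filtered the reads and assigned them to known miRNAs with mirPRo; its version and the genome build are not given in the sources used here. The deposited tables hold RPM (reads per 1000000 reads) for each mature sequence, rounded by the authors to 1 decimal, with replicates kept apart. The total behind the RPM is not stated, and the paper gives processed reads only as a mean and standard deviation for each group. The worth of 1 read was estimated from values up to 15 RPM. It was taken as the largest step over 0.11 RPM of which at least 98% of the distinct values were multiples within 0.05 RPM. Whole reads could not be recovered in every library, so no count test was run.

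RPM were divided by median-of-ratios factors, and log2(scaled RPM + 0.5) was fitted with limma 3.58.1 in R 4.3.3 (empirical Bayes with a variance trend, Benjamini-Hochberg over all tested, called at an adjusted p under 0.05, mean of at least 1 RPM). The comparisons with WT used their own 6 libraries, the others all 24. Single values had exact permutation tests, two-sided (SciPy 1.17.1, Python 3.11.15).

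Named miRNAs were up to 12 called in each direction whose groups did not overlap, the 10 most abundant, in each list the most abundant and that with the lowest p, other forms of the same precursors, and up to 5 of the change between conditions. miRNAs, lists and tests were chosen with earlier results of these data known. Of the 350 entries 45 are shared by several miRNAs and are named by the first. Positions are exact matches to TAIR10.1 with RefSeq annotation, since the files hold no coordinates. Sites were sought in RefSeq mRNAs, with G:U pairs counted as mismatches.

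Alternatives were the deposited RPM, a scale from an unweighted trimmed mean of log ratios, a pseudocount of 0.1 or 1, no filter on low values, a minimum mean of 5 RPM, a block on replicate number, a correction for GC content with and without that block, robust moderation, other sets of libraries in the fit, and each library left out. The GC correction without mkkk18-ABA replicate 1 was added after the values were seen. The fits were tried on simulated data with independent noise, with or without a GC slope common to the mkkk18-ABA libraries. Slopes that differ between libraries, as seen here, were not simulated.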

Additional observations from a re-analysis of the deposited data

Results flagged for a closer look

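For 13 of the miRNAs described above, the difference between mkkk18 and WT under ABA was not the same as that without ABA, by the test of the change itself over all 24 libraries (limma, Benjamini-Hochberg). Over all tested, 17 of 129 passed (13.2%). The miRNAs described were partly chosen by this change or by the difference under ABA that it contains, so their number was in part fixed by that choice. The change in the log2 fold change was 3.68 for miR161.2 (adjusted p = 0.0142), 2.59 for miR846-3p (0.0142), 2.98 for miR447a.2-3p (0.0158), 2.49 for miR393a-3p (0.0186) and 2.74 for miR779.2 (0.0186). It was 1.93 for miR397b (adjusted p = 0.0309), 1.44 for miR169f-3p (0.0398), 1.18 for miR824-5p (0.0398), 1.70 for miR158a-5p (0.0398), 1.99 for miR1886.2 (0.0398) and 2.16 for miR400 (0.0456). In these 11 the fitted log2 fold change was above 0 under ABA and below 0 without it, but the latter passed the threshold in only 4 (miR161.2, miR393a-3p, miR779.2 and miR397b). In another 4 it lay within 1 SE of 0, at -0.08 (SE 0.21) for miR846-3p, -0.07 (SE 0.23) for miR1886.2, -0.17 (SE 0.24) for miR158a-5p and -0.17 (SE 0.20) for miR824-5p. For these the mean deposited RPM without ABA was not lower in mkkk18 than in WT, at 167.8 against 152.2, 6.93 against 6.47, 5.90 against 5.83 and 50.9 against 50.8. In miR2111b-3p (-1.70, adjusted p = 0.0158) and miR167a-3p (-1.32, 0.0398) it was below 0 under ABA and above 0 without it. On the deposited RPM none of these passed.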

How the results depend on the processing

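The count of 11 miRNAs was 8 to 14 with the trimmed mean, the other pseudocounts, no filter, the replicate block (13), robust moderation and the GC correction with or without the block. It moved to 28 on the deposited RPM, to 3 at a mean of at least 5 RPM, where only 75 miRNAs and 5 of the 11 were tested, to 30 in the fit of all 24 libraries (23 higher and 7 lower), and to 3 with the GC correction without mkkk18-ABA replicate 1. Leaving out each library gave 4 to 26. The miRNAs behind these counts changed too. With no filter 6 of the 11 passed, with a pseudocount of 0.1 it was 8, and with the GC correction, with or without the block, 3. All 11 passed with the trimmed mean, a pseudocount of 1, the block and robust moderation. Of the 11, miR161.2 passed under all 18 alternatives, with log2 fold changes of 1.91 to 3.44, and miR846-3p under all but 1 of 18 (0.98 to 3.06).

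The mock comparison, with 30 calls, gave 7 on the deposited RPM, 0 in the fit of all 24 libraries, and 9 to 33 with each library left out. The change of the genotype difference, with 17 calls, gave 0 on the deposited RPM, 9 without the filter, 31 with only the groups compared, and 0 to 31 with each library left out. The deposited RPM moved the medians of all tested miRNAs from -0.02 to 0.15 in the mock comparison and from 0.00 to 0.31 in that change. Against mkkk17-ABA and against abi1td-ABA, leaving out each library gave 0 to 1. The difference in summed RPM was -1553 to 15072 with each library left out, that in detected miRNAs 20.2 to 36.7, and the slope on GC content -0.785 to -0.491.

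The replicate numbers did not pair the libraries: deviations of same-numbered mkkk18-ABA and WT-ABA libraries correlated at -0.42, 0.02 and -0.02. With the number as a block, 13, 24 and 19 miRNAs passed in the ABA, mock and change comparisons, and all 11 miRNAs of the main comparison passed.

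Of 667 values of the 38 named miRNAs under alternatives, 539 kept their sign and their side of the threshold, 54 no longer passed, 39 newly passed and 35 changed sign. The GC correction, with or without the block, turned miR166a-3p to 0.28, miR165a-3p to 0.42, miR398b-3p to 0.08, miR827 to -0.73, miR166a-5p and miR390a-5p to 0.11 and miR396a-5p to -0.07. With mkkk18-ABA replicate 1 also left out, it gave -0.36 for miR158a-5p, 0.19 for miR166a-3p, 0.26 for miR165a-3p, -0.76 for miR827, 0.07 for miR166a-5p, 0.21 for miR390a-5p and 0.27 for miR393a-5p. On the deposited RPM miR166a-3p was at 0.00, miR159a at 0.50, miR159b-3p at 0.40, miR398b-3p at 0.10, miR167a-3p at 0.17, miR319c at 0.22, miR161.1 at 0.30, miR824-3p at 0.33 and miR393a-5p at 0.27. miR159a was also at 0.08 without WT-ABA replicate 2 and 0.15 without mkkk18-ABA replicate 3 (-0.11 to 0.15 with each library left out), miR393a-5p at 0.06 without WT-ABA replicate 1 and 0.21 without mkkk18-ABA replicate 1 (-0.63 to 0.21), and miR827 at -0.04 without mkkk18-ABA replicate 2 (-0.04 to 0.48). The causes were not tested. In the 4 libraries where the worth of 1 read was estimated, a value under 0.5 RPM rests on at most 4 reads.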
